A study of Mus musculus with 18 samples.

Results

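The 9 genes followed here mark neutrophil granulocytes and their bone marrow precursors: S100a8, S100a9, Ngp, Camp, Ltf, Elane, Mpo, Lcn2 and Cxcr2. Their signals were compared across thymus samples of a mouse T-cell lymphoma model. They were taken as every probe set that the platform annotation assigns to 1 of these symbols, and each of the 9 genes had 1 probe set, out of 18194 genes with a probe set of their own on the array. The mice fell into 3 groups, each mouse on 1 array. The first held 8 CD4Cre-ctnnbex3 mice with lymphoma, the second 5 mice of that genotype before T-cell transformation, and the third 5 controls. In CD4Cre-ctnnbex3 mice, Cre driven by Cd4 regulatory sequences acts on a Ctnnb1 allele with a floxed exon 3, and its loss stabilises beta-catenin in thymocytes from the stage at which Cd4 is first expressed. The design text describes the controls as LckCre mice and the sample labels describe them as wild type, which was not settled, so they are called control. The mice were independent per the design text, and no age is stated in the sources used here. RNA came from total thymocytes or from tumour masses, so fewer granulocytes and less RNA per granulocyte cannot be told apart.

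Neutrophils load their granules in waves as they mature in the marrow. Promyelocytes make primary granule enzymes such as myeloperoxidase and neutrophil elastase, and later precursors make the specific granule proteins lactoferrin, cathelicidin and neutrophilic granule protein. S100A8 and S100A9 form calprotectin, the most abundant cytosolic protein of the mature cell, and CXCR2 is the chemokine receptor that draws mature neutrophils out of the marrow. Thymocytes themselves are not known for making these proteins, and the genes serve here as markers of myeloid cells in a T-lineage sample.

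The genes lie on 6 chromosomes. S100a8 and S100a9 are neighbours on chromosome 3, with 0 annotated genes between them. Ngp, Camp and Ltf lie on chromosome 9 but not side by side, with 8 protein-coding genes between Ngp and Camp and 20 between Ngp and Ltf. Elane, Mpo, Lcn2 and Cxcr2 lie on chromosomes 10, 11, 2 and 1. The stretch of 250 bases before the start of each gene, from RefSeq on GRCm38.p6, was searched on both strands for 3 short motifs that act in myeloid promoters. These were the C/EBP core TTGCNNAA, the PU.1 core GAGGAA and the TATA box core TATAAA. The upstream sequences of 4 of the 5 genes that fell in both comparisons with control are shown, to let the motif content of genes with a like pattern be compared. The stretch of S100a8 lies at chr3:90668821-90669070 (plus strand), S100a9 at chr3:90695722-90695971 (minus strand), Ngp at chr9:110419558-110419807 (plus strand) and Ltf at chr9:111019042-111019291 (plus strand). Each sequence runs 5′ to 3′ in the direction of the gene, with matches in capitals.
S100a8: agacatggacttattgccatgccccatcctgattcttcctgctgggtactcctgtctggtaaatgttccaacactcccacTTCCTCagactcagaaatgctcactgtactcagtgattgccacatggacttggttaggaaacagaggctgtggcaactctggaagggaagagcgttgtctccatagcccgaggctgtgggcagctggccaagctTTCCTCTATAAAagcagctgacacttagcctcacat
S100a9: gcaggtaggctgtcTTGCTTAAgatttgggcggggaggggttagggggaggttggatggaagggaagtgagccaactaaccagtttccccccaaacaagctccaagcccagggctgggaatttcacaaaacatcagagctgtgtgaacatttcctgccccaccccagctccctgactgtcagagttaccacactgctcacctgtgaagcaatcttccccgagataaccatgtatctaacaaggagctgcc
Ngp: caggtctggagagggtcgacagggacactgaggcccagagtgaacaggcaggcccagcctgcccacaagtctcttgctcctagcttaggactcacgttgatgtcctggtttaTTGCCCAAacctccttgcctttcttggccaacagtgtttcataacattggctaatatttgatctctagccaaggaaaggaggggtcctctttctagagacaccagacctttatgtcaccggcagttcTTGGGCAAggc
Ltf: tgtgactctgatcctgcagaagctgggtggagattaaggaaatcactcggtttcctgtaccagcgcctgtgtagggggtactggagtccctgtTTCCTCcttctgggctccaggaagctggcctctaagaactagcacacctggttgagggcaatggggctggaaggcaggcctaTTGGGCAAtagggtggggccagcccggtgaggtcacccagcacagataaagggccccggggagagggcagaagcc

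In these stretches S100a8 held a TATA box core 30 to 25 bases before its start, directly next to a PU.1 core, and a second PU.1 core further upstream. S100a9 held a C/EBP core 236 to 229 bases upstream and neither of the other motifs. Ngp held a pair of C/EBP cores, and the one closest to its start has the same letters, TTGGGCAA, as the one that Ltf holds 75 to 68 bases upstream. The upstream stretch of Camp, at chr9:109849457-109849706 (minus strand), held no match to any of them. Over all 9 genes a C/EBP core was found in 4 (S100a9, Ngp, Ltf and Lcn2), beside 9.56% of 32851 promoters in the same table. A PU.1 core was found in 6 (S100a8, Ltf, Elane, Mpo, Lcn2 and Cxcr2), beside 23.3% of all promoters. A TATA box core was found in S100a8 alone of the 9, beside 12.4% of all promoters. A match is a description of letters in this window and was not tested as a binding site.

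The values are probe-set intensities on a linear scale. Blank values and values under the 20th percentile of the whole table (an intensity of 53.5) were set to that floor, below which mice have no order. Array medians ranged from 125 to 166. Fold changes are on the log2 scale of the floored intensity, and a gene is said to rise or fall where limma's adjusted p, over all 14020 genes tested, was under 0.05. Of the 9 genes 8 passed the filter on low signal, which asks for an intensity above 109 on at least 5 arrays. Camp passed through 8 arrays, 5 of them controls, so it was tested only because controls were high. Cxcr2 did not pass. T-lineage markers were measured above the floor in every mouse, except Cd2 in 1 lymphoma. The sum of 11 of them lay at 18916 to 34250 in lymphomas, 46124 to 68625 before transformation and 57409 to 62849 in controls.

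Several features of the arrays run across the groups. Mice numbered 1 and 2 stood apart from those numbered 3 and up in earlier results of these data, though the labels name no batch, so values within each set of numbers are given where they change a result. By Xist and the Y-linked gene Eif2s3y, 6 lymphomas (all but 3 and 4) and controls 1 and 2 gave female signals, while lymphoma 3, all 5 mice before transformation and controls 3 to 5 gave male signals. Lymphoma 4 gave both, with a Xist intensity of 1110 and an Eif2s3y intensity of 313. Sex therefore ran in part with group in both comparisons of lymphomas, and its part in them was not tested. The bacterial spike-in signal, a mean log2 over control probe sets, lay at 9.71 to 10.34 in lymphomas, 10.65 to 11.05 before transformation and 10.60 to 10.77 in controls among mice numbered 3 and up.

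In CD4Cre-ctnnbex3 thymi before transformation, 5 of the 8 genes tested fell relative to control and none rose. The 5 were S100a8, S100a9, Ngp, Camp and Ltf, and in each of them all 5 mice before transformation lay below all 5 controls. Of these, Camp passed the filter on low signal only because controls were high. Among all genes tested, 6.18% fell and 4.36% rose in this comparison, and 6.24% had values that did not overlap with the lower side before transformation. The median log2 difference of the 8 genes was -1.19, beside -0.02 over all genes tested.

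S100a8 had intensities of 100, 73.7, 415, 107 and 431 in mice 1 to 5 before transformation, against 2295, 2375, 870, 757 and 3348 in controls 1 to 5. Mice 3 and 5 were the high ones before transformation, and controls 3 and 4 the low ones, but the groups did not overlap. The log2 difference was -3.27 ± 0.58 (SE, n = 5 and 5), a 9.68-fold lower signal (limma adjusted p = 0.00314). The probe set of S100a8 is of the kind that can also detect related transcripts.

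S100a9, whose product pairs with that of S100a8, had intensities of 83.0, 60.0, 369, 93.8 and 276 before transformation, against 2377, 2216, 763, 771 and 2962 in controls. The same mice stood high and low as for S100a8. The log2 difference was -3.51 ± 0.56 (SE), 11.4-fold lower (limma adjusted p = 0.00149).

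Ngp, which encodes a cystatin-like protein of the specific granules, had intensities of 331, 294, 416, 354 and 356 before transformation, against 1375, 1388, 548, 624 and 1701 in controls. The 5 mice before transformation lay close together, and the spread was in the controls, where mice 3 and 4 were again the low ones. Ngp fell by 1.55 ± 0.29 (SE) on the log2 scale, 2.93-fold (limma adjusted p = 0.00467).

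Camp, the gene of the antimicrobial peptide cathelicidin, was at the floor in all 5 mice before transformation, against intensities of 450, 366, 111, 117 and 583 in controls 1 to 5. It was at least 4.91-fold lower before transformation (limma adjusted p = 0.00424). Camp was tested only because controls were high, and with no filter on low signal the limma adjusted p was 0.0184. Its controls kept the pattern of high mice 1, 2 and 5 and low mice 3 and 4.

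Ltf, the gene of the iron-binding protein lactoferrin, had intensities of 214, 214, 370, 446 and 404 before transformation, against 463, 555, 450, 719 and 652 in controls. The groups did not overlap but came close, since mouse 4 before transformation had 446 and control 3 had 450. The log2 difference was -0.83 ± 0.23 (SE), 1.78-fold lower (limma adjusted p = 0.0410). This call was lost in 8 of 20 alternative settings, among them each fit without mouse 1 or 2 before transformation or without control 1, 2, 4 or 5 (adjusted p of 0.0537 to 0.102), and with no filter on low signal (0.0918).

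The differences were larger in size in mice numbered 1 and 2 than in the others. In mice 1 and 2 alone the log2 differences were -4.76 for S100a8, -5.02 for S100a9, -2.15 for Ngp, -2.92 for Camp and -1.24 for Ltf. In mice 3 to 5 alone, 3 against 3, they were -2.28, -2.50, -1.16, -1.88 and -0.55 in that order of genes, and none of the 5 passed (limma adjusted p of 0.0548 to 0.116). A test of whether the difference itself differed between the sets of numbers, run after the data were seen, did not pass for any of the 5 (limma interaction term, adjusted p of 0.215 for S100a9 to 0.567 for Camp). Mice 3 to 5 of both groups all gave male signals. Mice 1 and 2 gave male signals before transformation and female signals in controls, so sex cannot be told apart from mouse number here.

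The other 3 genes tested did not pass. Elane, the gene of neutrophil elastase, had intensities of 365, 1018, 335, 360 and 450 before transformation, against 488, 506, 245, 198 and 224 in controls, a log2 difference of 0.58 ± 0.35 (SE, limma adjusted p = 0.406). Mouse 2 before transformation stood far above the rest. In mice 3 to 5 alone Elane was higher before transformation, by 0.77 (adjusted p = 0.0217), and there it was the 1 gene of the 8 that passed. Its primary granule partner Mpo, the gene of myeloperoxidase, had 263, 207, 318, 307 and 277 before transformation, against 255, 295, 231, 393 and 359 in controls. The values of Mpo overlapped throughout (difference -0.15, 95% interval -0.52 to 0.22, limma adjusted p = 0.731). Lcn2, the gene of the siderophore-binding protein lipocalin 2, had 312, 264, 481, 243 and 234 before transformation, against 515, 543, 237, 297 and 505 in controls. Its log2 difference was -0.43 (95% interval -1.01 to 0.16, limma adjusted p = 0.430), and it passed only in mice 1 and 2 alone, at -0.88 (0.0296). Cxcr2 was at the floor or blank on 17 of the 18 arrays and reached 56.4 in control 5, so it gave no comparison.

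**Figure D1:**
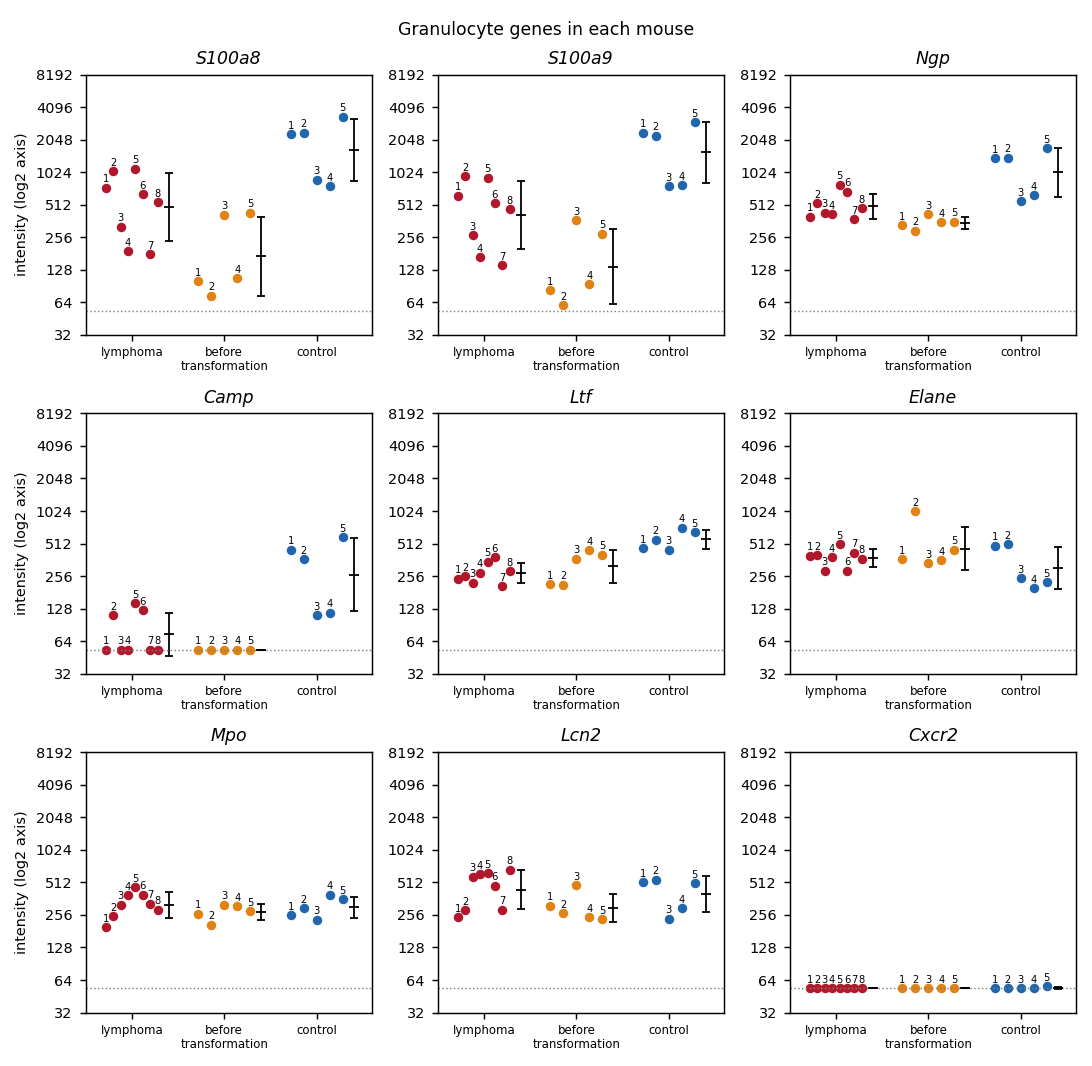
Intensity (log2 axis) of each of the 9 genes in every mouse, with lymphoma, before transformation and control from left to right. Numbers are mouse numbers, black bars are the mean ± SD of the log2 values, and the dotted line is the floor of 53.5. S100a8, S100a9, Ngp, Camp and Ltf show no overlap between mice before transformation and controls, and for S100a8 and S100a9 lymphomas 1, 6 and 8 lie in the gap between these groups.

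In lymphomas 5 of the 8 genes tested fell relative to control, and none rose. S100a8, S100a9, Ngp, Camp and Ltf fell, while Elane, Mpo and Lcn2 did not pass. Camp was again tested only because controls were high. Among all genes tested 22.7% fell and 17.4% rose in this comparison. The median log2 difference of the 8 genes was -1.04, beside -0.03 over all genes tested. Both comparisons with control share the 5 control arrays, so their directions are not independent of each other.

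S100a8 in the 8 lymphomas ran from 179 (lymphoma 7) through a median of 590 to 1103 (lymphoma 5), against 757 to 3348 in controls, with a log2 difference of -1.76 ± 0.50 (SE, n = 8 and 5, limma adjusted p = 0.0112). Lymphomas 2 and 5 were above the lowest control. S100a9 ran from 141 through a median of 496 to 940 in lymphomas, against 763 to 2962 in controls, 3.79-fold lower (difference -1.92 ± 0.50, limma adjusted p = 0.00672), again with lymphomas 2 and 5 overlapping the controls.

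Ngp ran from 373 through a median of 454 to 783 in lymphomas, against 548 to 1701 in controls, 2.07-fold lower (difference -1.05 ± 0.28, limma adjusted p = 0.00722). Lymphomas 5 and 6 exceeded the lowest control. Camp was at the floor in 5 of 8 lymphomas, and lymphomas 2, 5 and 6 had intensities of 112, 144 and 124. It was at least 3.56-fold lower than in controls (limma adjusted p = 0.00333). Ltf ran from 205 through a median of 266 to 385 in lymphomas, against 450 to 719 in controls. It fell by 1.04 ± 0.17 (SE), 2.05-fold (limma adjusted p = 0.000200). In mice numbered 3 and up alone, S100a9 and Ltf still fell. There S100a8 (-1.70, adjusted p = 0.0564), Ngp (-0.72, 0.132) and Camp (-1.44, 0.0612) did not pass.

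Elane ran from 287 through 388 to 504 in lymphomas, against 198 to 506 in controls (difference 0.29, 95% interval -0.20 to 0.78, limma adjusted p = 0.334). In mice numbered 3 and up alone it was higher in lymphomas by 0.73 (adjusted p = 0.00974). Mpo ran from 196 through 323 to 462 in lymphomas, against 231 to 393 in controls (difference 0.08, 95% interval -0.34 to 0.50, adjusted p = 0.775). Lcn2 ran from 243 through 528 to 673 in lymphomas, against 237 to 543 in controls (difference 0.15, 95% interval -0.48 to 0.77, adjusted p = 0.723). For Lcn2 the direction depended on the mouse numbers. In mice 1 and 2 alone it was lower in lymphomas by -1.01 (adjusted p = 0.0100), and in the others it lay at 0.67. The difference between the sets did not pass for Lcn2 (interaction adjusted p = 0.0694) or Elane (0.0648).

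**Figure D2:**
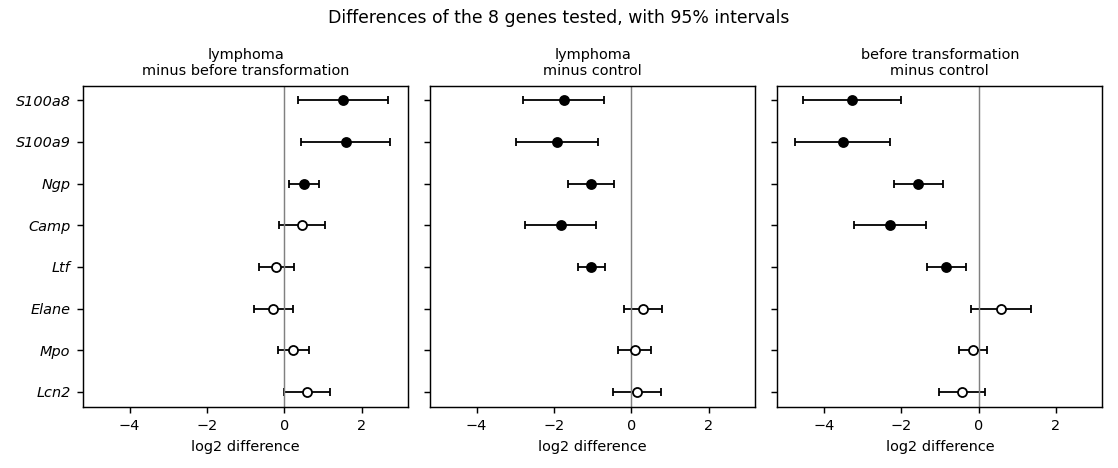
Log2 differences of the 8 genes tested in the comparisons lymphoma minus before transformation, lymphoma minus control and before transformation minus control, with 95% intervals from limma. Filled points passed an adjusted p under 0.05. S100a8, S100a9, Ngp, Camp and Ltf lie left of 0 in both comparisons with control, while S100a8, S100a9 and Ngp lie right of 0 between lymphomas and mice before transformation.

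Between lymphomas and mice before transformation, 3 of the 8 genes tested were higher in lymphomas and none was lower. S100a8 differed by 1.52 ± 0.55 (SE), or 2.87-fold (limma adjusted p = 0.0429), and S100a9 by 1.59 ± 0.54, or 3.01-fold (0.0331). Ngp differed by 0.51 ± 0.18, or 1.42-fold (0.0380). Among all genes tested 16.0% rose and 18.3% fell. The median log2 difference of the 8 genes was 0.48, beside -0.03 over all genes tested. In all 8 genes the groups overlapped.

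S100a8 ran from 179 through 590 to 1103 in the 8 lymphomas, against 73.7, 100, 107, 415 and 431 before transformation. Lymphomas 3, 4 and 7 lay below the highest mice before transformation, and lymphomas 1, 2, 5, 6 and 8 above them. None of these 3 calls held throughout. With mice numbered 3 and up alone S100a8 differed by 0.58 (adjusted p = 0.489), S100a9 by 0.66 (0.418) and Ngp by 0.44 (0.151). In mice 1 and 2 alone the differences of S100a8 and S100a9 were 3.35 and 3.43, and the interaction had an adjusted p of 0.152 and 0.141. The count fell to 0 of 8 without lymphoma 2, 5, 6 or 8, without mouse 1, 2 or 4 before transformation, and with no filter on low signal.

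Camp did not differ detectably between them, with 5 of 8 lymphomas and 5 of 5 mice before transformation at the floor (limma adjusted p = 0.213). Ltf differed by -0.21 (95% interval -0.66 to 0.24, adjusted p = 0.468), Elane by -0.29 (-0.79 to 0.21, 0.365) and Mpo by 0.23 (-0.18 to 0.63, 0.379). Lcn2 differed by 0.57 (-0.02 to 1.17, 0.124) and passed in 1 of 23 alternatives, without lymphoma 1 (0.0460). By group mean S100a8, S100a9, Ngp and Camp were ordered control, lymphoma, before transformation from high to low, and Ltf control, before transformation, lymphoma. The groups at the low end did not differ detectably for Camp or Ltf.

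The genes differed in how closely they followed each other across mice. With the mean of the 8 genes tested, each centred on its own mean, the log2 signal over the 18 arrays correlated at r = 0.974 for Ngp, 0.961 for S100a9, 0.956 for S100a8, 0.933 for Camp and 0.693 for Ltf. It correlated at 0.489 for Lcn2, 0.282 for Mpo and -0.233 for Elane. Each of these genes is part of the mean it is set against, and the arrays share their group, so the values are a description. Over the deviations from group means, r was 0.857 to 0.934 for S100a8, S100a9, Ngp and Camp in the same measure. It was 0.550 for Lcn2, 0.501 for Ltf, 0.307 for Mpo and 0.173 for Elane, so that within groups Lcn2 and Ltf changed places. For some of the genes the mice kept their places within groups too. Controls 1, 2 and 5 were high and controls 3 and 4 low for S100a8, S100a9, Ngp, Camp and also Lcn2, and mice 3 and 5 were the highest before transformation for S100a8, S100a9 and Ngp. For Ltf the order differed, with control 4 and mouse 4 before transformation highest in their groups.

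**Figure D3:**
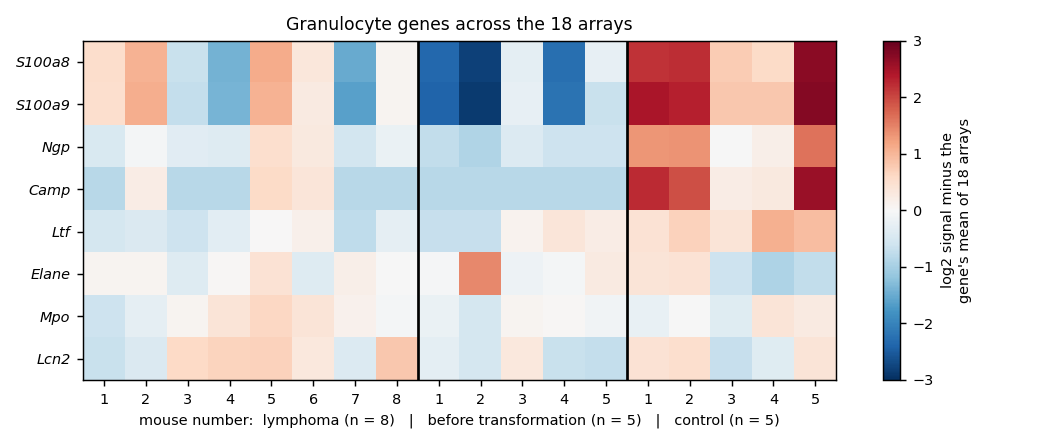
Log2 signal of the 8 genes tested on each of the 18 arrays, minus the gene's mean over the arrays, with lymphomas at the left, mice before transformation in the middle and controls at the right. The upper 4 genes are highest in controls 1, 2 and 5. Lcn2 shows a weaker split of the controls in the same places, and Elane is highest in mouse 2 before transformation.

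Within the 8 lymphomas the calprotectin pair varied together. S100a8 and S100a9 correlated at r = 0.998 (exact permutation p = 4.96e-05, two-sided, 0.000546 after Benjamini-Hochberg adjustment over 11 relations with S100a9) and rho = 0.976 (exact p = 0.000397, adjusted 0.00437). Without lymphomas 4 and 7, the farthest from the median of S100a9, r was 0.997, and in the 6 lymphomas numbered 3 and up it was 0.998 (exact p = 0.00139). Ngp followed S100a9 less closely, with r = 0.684 (exact p = 0.0647, adjusted 0.178) and rho = 0.667 (exact p = 0.0831, adjusted 0.228). In the 6 lymphomas numbered 3 and up Ngp had r = 0.926 (exact p = 0.00556, not adjusted), and without lymphomas 4 and 7 it had r = 0.515. Chil3, which encodes a chitinase-like protein of neutrophil precursors and macrophages, had r = 0.783 (exact p = 0.0243, adjusted 0.134; rho = 0.690, exact p = 0.0694, adjusted 0.228) and r = 0.476 without those 2. Lyz2, the lysozyme gene of neutrophils and macrophages, had r = -0.197 (exact p = 0.634, adjusted 0.698; rho = -0.357, exact p = 0.389, adjusted 0.714), and the macrophage complement gene C1qa had r = 0.240 (exact p = 0.590, adjusted 0.698; rho = 0.119, exact p = 0.793, adjusted 0.793). Of the other genes tested, Camp had r = 0.703 (exact p = 0.0625, adjusted 0.178), with 5 of the 8 lymphomas at the floor. Ltf, Elane, Mpo and Lcn2 had r of 0.520, 0.225, -0.199 and -0.101. Only the relation with S100a8 passed the adjustment.

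**Figure D4:**
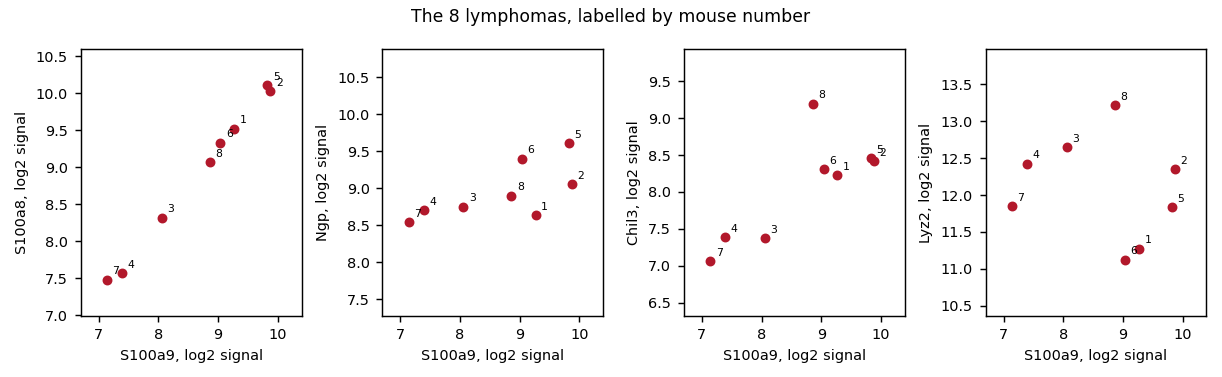
Log2 signal of S100a8, Ngp, Chil3 and Lyz2 (vertical axes, all spanning the same log2 range) against that of S100a9 (horizontal axis) in the 8 lymphomas, labelled by mouse number. S100a8 rises with S100a9 along a line (r = 0.998), while Lyz2 shows no such relation (r = -0.197).

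The rest of the neutrophil programme was followed through lists of related genes. Over all genes tested, the shares to set beside each count are these. Before transformation 4.36% rose and 6.18% fell relative to control. In lymphomas 17.4% rose and 22.7% fell relative to control, and 16.0% rose and 18.3% fell relative to mice before transformation. Of 3 tested genes of primary granules, beside Elane and Mpo, none passed in either comparison with control. Prtn3, the gene of proteinase 3, was higher in lymphomas than before transformation by at least 0.99 on the log2 scale, with 3 of the 5 mice before transformation at the floor (limma adjusted p = 0.0143). Prtn3 passed the filter on low signal only with the help of lymphomas, where it was high. No mouse before transformation exceeded 75.7, and 3 of 5 controls were at the floor. Ms4a3, a marker of granulocyte and monocyte progenitors, was not called in any comparison. Fcnb, the gene of ficolin B, was blank on all 13 CD4Cre-ctnnbex3 arrays, against intensities of 189, 55.9, 592, 560 and 807 in controls 1 to 5. It exceeded the filter's intensity on 4 arrays, was therefore not tested, and was chosen after its values were seen. Its low controls were 1 and 2, not 3 and 4 as for S100a8.

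Of 12 tested genes of specific and gelatinase granules, 2 fell and 1 rose before transformation relative to control. Padi4, the gene of the enzyme that citrullinates histones in neutrophils, was at the floor or blank in all 8 lymphomas and in all 5 mice before transformation, against 257, 247, 239, 179 and 323 in controls. It was at least 4.57-fold lower in each, and it passed the filter on low signal only through the controls, where it was high. Chil3 had 91.0, 67.4, 97.2, 109 and 77.0 before transformation, against 329, 315, 131, 185 and 428 in controls, a fall of 2.93-fold (adjusted p = 0.00440), with controls 3 and 4 low as for S100a8. In lymphomas Chil3 ran from 134 to 586, above every mouse before transformation (3.05-fold, adjusted p = 0.00108) and not detectably different from control (difference 0.06, adjusted p = 0.913).

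Itgam, the gene of the CD11b integrin chain of myeloid cells, was above control in both groups of CD4Cre-ctnnbex3 mice. It ran from 247 to 3105 in lymphomas and from 586 to 1361 before transformation, while controls stayed at or under 84.6. Its log2 difference from control was 4.08 in lymphomas (adjusted p = 1.84e-05) and 3.73 before transformation (adjusted p = 1.05e-06). In lymphomas 7 of the 12 genes were above control and 2 below, beside 17.4% and 22.7% of all genes tested. Relative to mice before transformation 6 were above and 1 below, beside 16.0% and 18.3%. Lyz2 was among the genes above in both comparisons, with intensities of 2235 to 9499 in lymphomas, against 514 to 1025 in controls (difference 2.39, adjusted p = 2.82e-05). It did not differ detectably between mice before transformation and controls (-0.42, adjusted p = 0.747). Mmp8, of the same list, lay lower in lymphomas. Its intensities were 87.3 to 119 there, against 131 to 149 before transformation and 123 to 175 in controls.

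Of 15 tested genes of mature neutrophils, none passed before transformation relative to control. In lymphomas the C-type lectin genes Clec4d and Clec4e, which monocytes and macrophages also make, were above control by at least 1.55 and 2.21 on the log2 scale, and no gene of the list was below it. Clec4d was at the floor in 3 of 5 controls, and Clec4e in all 5 controls and all 5 mice before transformation, so these differences are lower bounds. Both passed the filter on low signal only through lymphomas, where they were high. Relative to mice before transformation 4 of the 15 were higher in lymphomas, the lectin pair with Ifitm6 and Wfdc21, and none lower.

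Of 5 tested transcription factors of granulopoiesis, Gfi1, which T-cell precursors also express, was higher before transformation than in controls by 0.67 (limma adjusted p = 0.00338). In lymphomas 4 of the 5 were above control, beside 17.4% of all genes tested. Cebpb was at 1.66 (4.85e-05), Spi1 (the PU.1 gene) at 0.85 (0.00575), Cebpa at 0.85 (0.00899) and Gfi1 at 0.59 (0.0147). Cebpb passed the filter on low signal only through lymphomas, where it was high. Irf8 did not pass (0.28, 0.635).

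Other cell types moved beside these genes, and their part in the results was not tested. Of 15 macrophage markers none passed before transformation relative to control. The summed intensity of the 17 markers on the array was 5464 to 18731 in lymphomas, 2769 to 5574 before transformation and 3507 to 5952 in controls. In lymphomas 9 of the 15 were above control and 2 below, beside 17.4% and 22.7% of all genes tested. C1qa (2.79, limma adjusted p = 0.000473) and Cd68 (2.33, 0.000319) were among those above. Cd14 and Csf1r had lower medians in lymphomas than in the other groups. Those of Cd14 were 122 in lymphomas, 339 in controls and 307 before transformation, and those of Csf1r 919, 1501 and 1442. Cd68 passed the filter on low signal only with the help of lymphomas, where it was high. Its medians were 105 in controls and 92.4 before transformation. Among 6 eosinophil, basophil and mast cell markers, Prg2, the gene of eosinophil major basic protein, was lower in mice before transformation. It had 64.1, 46.0, 56.4, 72.7 and 49.6 before transformation, against 367, 362, 72.9, 101 and 345 in controls (difference -1.76, adjusted p = 0.0232), with mice 1, 2 and 5 the high controls. Prg2 exceeded the filter's intensity only on those controls and on lymphomas 3 and 5, so it was tested only because controls were high. Il5ra, the receptor chain for interleukin 5, went the other way, at 2.25 above control before transformation (adjusted p = 2.27e-05). In lymphomas 3 of these 6 markers were above control and 2 below.

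Among 7 B-cell markers Ighm, the immunoglobulin mu heavy chain gene, was lower before transformation than in controls by -2.46 (limma adjusted p = 0.00221). It was 401 to 2458 before transformation, against 3543 to 4948 in controls. The summed B-cell markers were 1767 to 15018 in lymphomas, 1243 to 5231 before transformation and 4834 to 6405 in controls. Of 6 erythroid markers none passed before transformation relative to control, and the sums of the 10 on the array overlapped between all groups (1327 to 2214 in lymphomas, 1516 to 1827 before transformation and 1446 to 1968 in controls). In lymphomas 1 erythroid marker, Slc4a1, was above control (medians of 453 and 287) and 1, Hba-a1, below (252 and 403). Of 7 platelet markers none passed before transformation relative to control, and 3, among them Pf4 (0.86, adjusted p = 0.000626), were above control in lymphomas. Of 11 T-lineage markers 10 were below control in lymphomas and 5 before transformation, where Cd4 was above it (0.55, adjusted p = 0.0283).

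Outside the 9 genes, Prg2 had the pattern most like theirs over the 18 arrays, with r = 0.875 against the mean of the 8 genes tested. It was followed by Ifi27l2a (0.837), Irf2bpl (0.837), Adat2 (0.829), Fkbp5 (0.818), Id3 (0.794), Cmtm7 (0.777), Ier2 (0.777), Plcl2 (0.763) and Slfn1 (0.762). Much of that likeness is shared group level. Over the deviations of the 18 arrays from their group means the list was led by Fbxw8 (0.807), Lysmd1 (0.768), Pigm (0.742), Chil3 (0.734), Mafg (0.732) and Ap1b1 (0.732), then Ube2d-ps (0.728), Pde5a (0.715), Prg2 (0.715) and Habp4 (0.703). Prg2 was the 1 gene in both lists.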

How the data were processed

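Probe-set signals of 18 Affymetrix mouse arrays were used. The labels' protocols state TRIZOL extraction, RNeasy columns and biotin-labelled cRNA. The authors deposited linear intensity values from dChip, as the design text names it, whose version, model and scaling the sources used here do not state. Of 811818 values 9775 were blank (1.20%), and control 1 had no blanks but held 605 of 606 negative values. Of 546 probe sets blank on control 2, 98.2% lay below the floor on control 1.

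Values were floored at the 20th percentile (53.5) and taken to log2. Of 45101 probe sets 34958 had 1 gene symbol in the platform annotation, 932 several and 9211 none. The probe set with the highest mean stood for a gene, giving 18194 genes, of which 14020 were above the 40th percentile (109) on at least 5 arrays. Each pair of groups was fitted alone with limma 3.58.1 (R 4.3.3, eBayes with trend), two-sided, with Benjamini-Hochberg adjustment over the genes tested, and each adjusted p is limma's unless called an exact permutation test. The script was tested on simulated data. A fold is written "at least" where most mice of the lower group (3 of 5, 4 of 8) were at the floor. The number of arrays limits precision.

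The 9 genes, the lists and the motifs were chosen with earlier results of these data known. All 9 were named, with, per list and comparison, up to 4 called genes of smallest adjusted p and the uncalled gene of highest mean as candidates for naming, and the 10 most alike genes by Pearson r. Upstream sequences are RefSeq's on GRCm38.p6, found for all 9 genes. Alternatives were the floor, filter, scaling, probe sets, a joint fit, blocks, mouse sets and leaving out each mouse.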

Additional observations from a re-analysis of the deposited data

Results flagged for a closer look

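In 24 groups of values (each of the 9 genes in each of the 3 groups, except where all mice were at the floor) the highest and the lowest mouse were compared with their nearest neighbour by Dixon's ratio. In 2 of them a mouse passed the limit, and chance gives about 1 in 20. Elane in mouse 2 before transformation had an intensity of 1018, against 335 to 450 in the other 4 mice of that group. Cxcr2 in control 5 had an intensity of 56.4, just over the floor of 53.5, at which the other 4 controls were set. That ratio follows from the floor, since the measured controls ran from 40.8 to 56.4, with 1 blank.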

How the results depend on the processing

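Across all alternatives for single genes, 476 of 528 values stayed on their side of the threshold, 47 lost a call in the same direction, 4 gained one and 1 reversed. The 476 include genes that were not called in either fit. Between lymphomas and mice before transformation S100a8, S100a9 and Ngp lost their calls in 10, 9 and 13 of 23 alternatives. The reversal was Lcn2 between lymphomas and controls, which was -1.01 in mice 1 and 2 alone (adjusted p = 0.0100) against 0.15 in all mice. Of the 476, 7 that were not called changed sign, in mice 1 and 2 alone or without control 3. In those mice Ltf, Mpo and Lcn2 between lymphomas and mice before transformation were 0.22, -0.08 and -0.13, and Elane and Mpo between lymphomas and controls -0.33 and -0.31. Without control 3, Mpo and Lcn2 between lymphomas and controls were -0.02 and -0.04. The count of the 8 genes called between lymphomas and mice before transformation was 3, and 0 with no filter or in mice numbered 3 and up alone, and it ranged from 0 to 3 when each mouse was left out. Between lymphomas and controls it was 5, 3 in mice numbered 3 and up alone (S100a9 and Ltf lower, Elane higher), and 5 to 5 without each mouse. Between mice before transformation and controls it was 5, 1 in mice numbered 3 and up alone (Elane, in the opposite direction), and 4 to 5 without each mouse. In mice 1 and 2 alone the counts were 2, 6 and 6, in the same order of comparisons. Over all 14020 genes tested, 2571, 3971 and 1068 were called in mice 1 and 2 alone, in that order. In mice numbered 3 and up alone 5839, 5846 and 1271 of all genes tested were called. The cause of these changes was not tested.

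Mouse numbers were not taken to pair the samples, since not every same-numbered pair deviated together from its group means by r over 0.1. The correlations ran from 0.09 to 0.41 between lymphomas and mice before transformation, positive in all 5 pairs, and down to -0.14 in the comparisons with control. With the replicate block the counts were 2, 5 and 5, and Ngp between lymphomas and mice before transformation lost its call (0.51, adjusted p = 0.0553). Over all genes, 4816, 5618 and 1478 were called in the 3 comparisons, 8828, 9958 and 2801 when all 24377 probe sets were tested, and 818 in place of 1478 in 1 fit of 3 groups. With no filter on low signal 4789, 5795 and 1424 of 18194 genes were called. Mice at the floor limit what Camp and Cxcr2 can show.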
